A study of Mus musculus with 45 samples.

Results

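The Hox cluster genes are described here in mouse embryonic stem cells, early embryos and ventricles from the heart tube to the adult. The members are all genes whose array annotation gives a symbol of Hoxa, Hoxb, Hoxc or Hoxd followed by a number, and 33 of the 18193 genes on the array met this rule. The Hoxa cluster on chromosome 6 gave 9 members and the Hoxb cluster on chromosome 11 gave 9. The Hoxc cluster on chromosome 15 gave 7 members and the Hoxd cluster on chromosome 2 gave 8. Other Hox genes are not analysed here as single genes. RNA was hybridised to 45 Affymetrix arrays, 3 biological replicates in each of 15 groups. The groups were R1 embryonic stem cells (ESC), the entire E7.5 embryo, the E8.5 heart tube, and left ventricle (LV) or right ventricle (RV). The ventricles were taken at E9.5, at E12.5, at E14.5, at E18.5, on postnatal day 3 and in adults. The tissue came from wild type CD1 mice with no transgene or treatment in any group, while R1 is an established cell line of another origin. Pools of 30 to 50 animals made up a sample at E7.5, E8.5 and E9.5, pools of 10 to 20 at E12.5 and E14.5 and pools of 3 to 5 at E18.5. A day 3 or adult sample was 1 heart, and these hearts were crushed frozen before the RNA was taken. Values are log2 RMA signals of the probe set (the group of short probes for a transcript) with the highest mean over all arrays. They ranged from 2.07 to 15.2 over all probe sets, with a median of 5.41, and a difference of 1 is 2-fold.

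Hox genes encode homeodomain transcription factors and lie in clusters in which gene order follows the order of expression along the body axis and in time. Low-numbered paralogues, at the 3′ end of a cluster, are activated early and have anterior limits in the hindbrain, while high-numbered paralogues are activated later and mark the posterior trunk, tail and limbs. In the heart, anterior Hox genes such as Hoxb1 and Hoxa3 are known from second heart field progenitors and cardiac neural crest, and retinoic acid is a known inducer of the 3′ genes.

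The 250 bases upstream of the start site are printed for 4 genes on which the results turn: Hoxb1 and Hoxd1 are the members of paralogue group 1 and had the largest rises into the E7.5 embryo, and Hoxa10 and Hoxd10 are posterior genes that stood high in single arrays. They come from RefSeq on GRCm38.p6, run 5′ to 3′ in the direction of the gene, and show in capitals any match on either strand to a motif searched. The motif TGATNNAT is bound by Hox with Pbx proteins. Caudal proteins bind TTTATNG. Retinoic acid receptors bind AGGTCA. The TATA box was searched as TATAAA, which can overlap the caudal motif.
Hoxb1, chr11:96365508-96365757, plus strand: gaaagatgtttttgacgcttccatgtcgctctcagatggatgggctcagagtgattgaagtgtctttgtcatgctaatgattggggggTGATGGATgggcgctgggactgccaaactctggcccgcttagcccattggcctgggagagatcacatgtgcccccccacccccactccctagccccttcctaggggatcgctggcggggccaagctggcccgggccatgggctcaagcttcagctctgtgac
Hoxd1, chr2:74762730-74762979, plus strand: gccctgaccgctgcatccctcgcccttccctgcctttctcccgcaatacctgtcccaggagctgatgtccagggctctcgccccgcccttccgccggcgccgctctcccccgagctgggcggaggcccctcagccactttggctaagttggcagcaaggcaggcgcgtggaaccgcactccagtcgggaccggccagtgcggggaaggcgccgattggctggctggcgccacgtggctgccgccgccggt
Hoxa10, chr6:52234940-52235189, minus strand: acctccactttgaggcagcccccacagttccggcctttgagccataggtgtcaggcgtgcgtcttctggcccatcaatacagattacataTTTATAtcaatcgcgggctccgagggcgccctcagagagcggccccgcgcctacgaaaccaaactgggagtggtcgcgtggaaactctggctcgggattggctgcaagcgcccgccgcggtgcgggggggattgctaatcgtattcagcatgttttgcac
Hoxd10, chr2:74691641-74691890, plus strand: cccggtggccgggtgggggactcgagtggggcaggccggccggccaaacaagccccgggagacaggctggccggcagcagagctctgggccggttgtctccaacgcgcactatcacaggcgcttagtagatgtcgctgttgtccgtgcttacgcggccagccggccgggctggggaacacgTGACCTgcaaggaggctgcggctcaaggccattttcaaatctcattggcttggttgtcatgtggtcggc
The Hoxb1 sequence held 1 match, to the Hox with Pbx site, and the Hoxd1 sequence held none. Hoxa10 held a TATAAA match and Hoxd10 an AGGTCA match, each read on the opposite strand. RefSeq gives a second Hoxa10 start site, whose sequence (chr6:52240855-52241104) held no match and 7 CG dinucleotides; it is not printed. These sequences held 7 CG dinucleotides for Hoxb1, 24 for Hoxd1, 20 for Hoxa10 and 20 for Hoxd10. RefSeq promoters were matched for 19 of the 33 members, 21 sequences in all. Of these 21 sequences, 14.3% held TGATNNAT, 23.8% held AGGTCA, 9.5% held TATAAA and 0.0% held TTTATNG. Among all 32841 promoters of the same length, TGATNNAT was found in 7.7%, AGGTCA in 4607 sequences, TATAAA in 12.4% and TTTATNG in 9.8%. The median number of CG dinucleotides was 13 in the Hox sequences and 6 in all promoters.

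Averaged over the 33 members, signal was highest in the E7.5 embryo. The mean was 4.54 ± 0.04 in ESC (SD, n = 3), 5.40 ± 0.15 at E7.5 and 4.81 ± 0.13 in the E8.5 heart tube. In the ventricles the group means lay between 4.47 at E9.5 LV and 4.78 in adult LV. By single genes, 13 members had their highest group mean at E7.5 and 14 in an adult ventricle. The shares of all genes with these highest groups are not given here. The E7.5 group was Hoxa2, Hoxa10, Hoxa11, Hoxb1 to Hoxb6, Hoxc4, Hoxc8, Hoxd1 and Hoxd9. The adult group was Hoxa3, Hoxa4, Hoxa7, Hoxa9, Hoxa13, Hoxb7, Hoxb13, Hoxc5, Hoxc6, Hoxc9, Hoxd3, Hoxd8, Hoxd12 and Hoxd13. Some of these places rest on small spans: group means of Hoxa9, Hoxb7, Hoxb13, Hoxc5 and Hoxd12 spanned 0.27 to 0.45. Only Hoxd3 of the adult group was called from day 3 to the adult in the main fit below. Places also depend on the probe set. A second Hoxa9 probe set (1455626_at) and a further Hoxa3 probe set (1427433_s_at) were highest at E7.5, at 6.04 and 5.01. The place of Hoxd8 rests on adult RV array 2, at 7.69 against 5.67 and 6.14. Its means were 6.50 in adult RV, 6.08 in adult LV and 6.26 at E7.5. Of the rest, Hoxc10 and Hoxd10 peaked at E9.5 RV, Hoxa5 and Hoxb9 at day 3 LV, Hoxd11 at day 3 RV and Hoxc13 at E8.5. The spans of the patterns differed. Group means spanned more than 1 log2 unit for 16 members and less than 0.5 for 6, with a mean within-group SD of 0.10 to 0.38. Signal lay above the array-wide median of 5.41 in all 45 arrays for Hoxa5, Hoxa7, Hoxa9, Hoxb2, Hoxb3 and Hoxc9. It lay above it in no array for 12 members, among them Hoxa2, Hoxa4, Hoxd3 and 9 genes of paralogue groups 7 to 13. A low array signal does not show that a gene is silent, and levels of different genes depend on their probes. The tissue is bulk, so fewer cells of a type and less RNA per cell cannot be told apart.

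**Figure D1:**
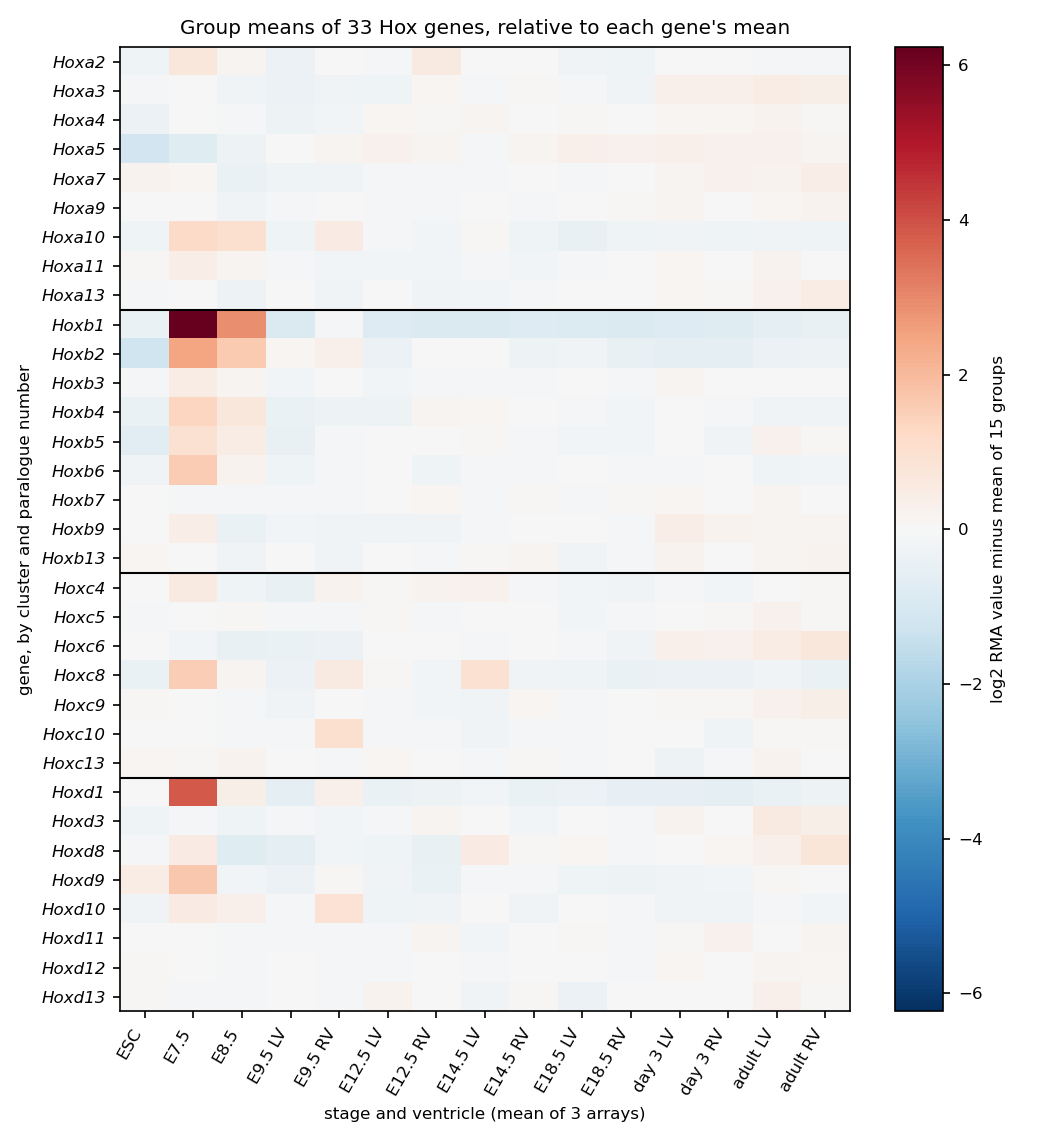
Group means of the 33 Hox genes, each as the difference in log2 RMA signal from that gene's mean over 15 groups, ordered by cluster and paralogue number. The strongest positive values are Hoxb1 and Hoxd1 at E7.5, followed by Hoxb1 at E8.5 and Hoxb2 at E7.5, and Hoxc10 and Hoxd10 stand out at E9.5 RV, where 1 of the 3 arrays was high.

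Heart muscle markers were far higher in 2 heart arrays than in an E7.5 array. The mean of 6 heart muscle markers was 6.37 in E7.5 array 2 and 13.42 in E8.5 array 2, and it was 13.29 in E9.5 RV array 1. A few arrays stood apart from the other replicates of their group in Hox signal. E9.5 RV array 1 was the furthest, with 10 members (30.3%) more than 1 log2 unit above the mean of the other 2 RV arrays, against 0.429% of all genes. The next was E7.5 array 2 with 4 such members, followed by E14.5 LV array 2 with 2. E8.5 array 2, E12.5 RV array 1 and adult RV array 2 had 1 each. Calls that rest on E9.5 RV array 1 or E7.5 array 2 are given with and without them. Group means include every array.

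From ESC to the E7.5 embryo, 16 of 33 Hox genes rose and 0 fell, led by anterior genes of the B and D clusters. Of all 18193 genes, 49.4% were called in this comparison, 24.3% as higher and 25.2% as lower, so the 48.5% of members called lay near the background, with all 16 calls in 1 direction. That depends on single ESC arrays: without ESC array 2, 13 members were higher and 2 lower (Hoxb13 at -0.26 and Hoxb7 at -0.31), against 47.0% of all genes called, and without ESC array 3, 14 were higher and 2 lower (Hoxc6 at -0.43 and Hoxd13 at -0.26), against 46.2%. Called means a Benjamini-Hochberg adjusted p under 0.05 over all genes from limma. The median difference was 0.33 over the members and -0.02 over all genes. The comparison sets a cell line against whole embryos, so stage, tissue and source cannot be told apart. Hoxb1, which patterns the hindbrain and marks second heart field progenitors, read 3.28, 3.28 and 3.53 in the 3 ESC arrays and 10.22, 9.67 and 10.09 in the 3 E7.5 arrays. All E7.5 arrays lay far above all ESC arrays, a rise of 6.63 ± 0.25 (SE; limma adjusted p = 4.31e-16). Its paralogue Hoxd1 read 3.55, 3.66 and 3.60 in ESC and 7.43, 7.59 and 7.18 at E7.5, and it rose by 3.80 ± 0.21 (limma adjusted p = 2.51e-13). Hoxb2, a hindbrain gene next to Hoxb1, already lay above the array median in ESC at 6.12, 5.67 and 5.95. It averaged 9.62 ± 0.11 at E7.5 (SD, n = 3), with the highest array at 9.72, a rise of 3.71 ± 0.11 (limma adjusted p = 7.59e-18). Within each of these 3 genes the E7.5 arrays agreed closely, and the groups did not overlap.

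The other 13 called members had smaller rises. Hoxc8, a trunk gene, rose by 1.93 ± 0.35 (limma adjusted p = 6.58e-05) from ESC values of 2.77, 2.83 and 2.63 to 4.22, 5.42 and 4.39. Hoxb6 rose by 1.81, Hoxb4 by 1.78, Hoxb5 by 1.60 and Hoxd9 by 1.22, each without overlap between groups. Smaller rises were called for Hoxa2 (0.98), Hoxc4 (0.57), Hoxb3 (0.56), Hoxa5 (0.42), Hoxb9 (0.40) and Hoxa4 (0.31). The remaining calls, Hoxa10 and Hoxd10, rested on E7.5 array 2. Hoxa10 read 3.31, 5.94 and 3.59 at E7.5 against 2.57 to 3.03 in ESC, so array 2 stood 2.49 above the other 2. Its rise was 1.44 ± 0.46 (limma adjusted p = 0.011), and 0.61 (limma adjusted p = 0.141) without that array. The other Hoxa10 probe set (1446408_at) differed by 0.09 and was not called (limma adjusted p = 0.331). Hoxd10 read 3.15, 4.27 and 3.25 at E7.5, and its rise of 0.74 (limma adjusted p = 0.049) became 0.38 (limma adjusted p = 0.323). Hoxd10 was also not called when any of the 3 ESC arrays was left out (limma adjusted p = 0.054 to 0.136). Small rises were lost too without a single array: Hoxa4 without ESC array 2 (limma adjusted p = 0.099), ESC array 3 (0.106) or E7.5 array 1 (0.246), Hoxc4 without ESC array 2 (0.053), E7.5 array 1 (0.089) or E7.5 array 2 (0.064), and Hoxa5 without ESC array 3 (0.093). The last genes of the clusters were not called, with differences of 0.11 for Hoxa13, -0.17 for Hoxb13, -0.06 for Hoxc13 and -0.17 for Hoxd13.

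By cluster, 7 of 9 Hoxb genes were called, with a median difference of 1.60 over the cluster. The counts were 4 of 9 for Hoxa (median 0.31), 2 of 7 for Hoxc (0.07) and 3 of 8 for Hoxd (0.37). By paralogue number, 8 of 10 genes of groups 1 to 4 rose, against 4 of 9 in groups 5 to 8 and 4 of 14 in groups 9 to 13. The medians in that order were 0.78, 0.42 and 0.07. Differences among clusters or paralogue groups were not tested. In a fit on the 45 single arrays 13 members were called against 43.0% of all genes, and Hoxa4, Hoxc4 and Hoxd10 were lost.

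**Figure D2:**
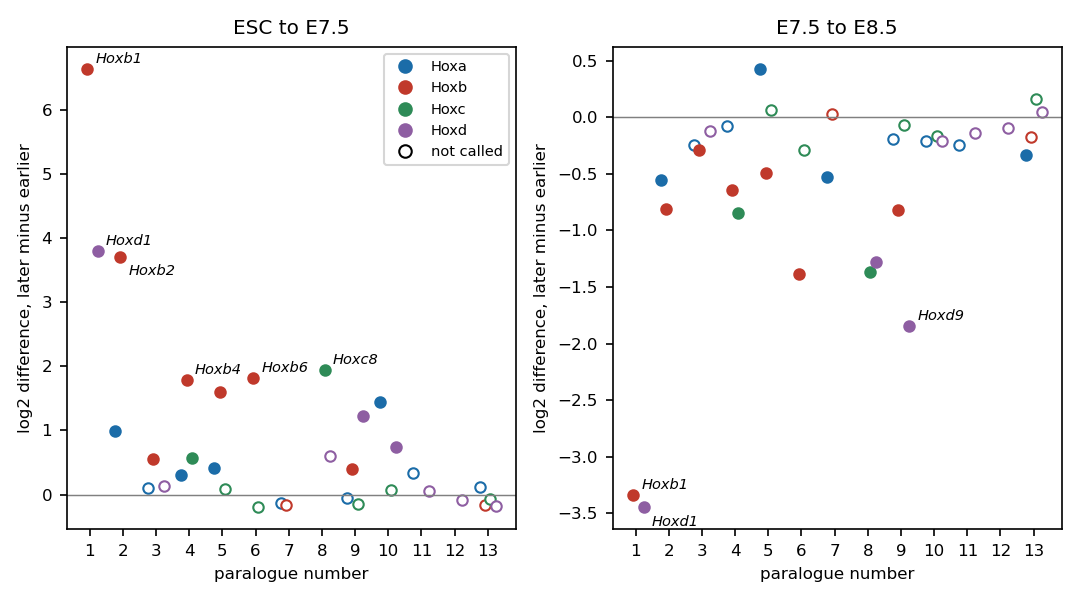
Log2 difference of each Hox gene plotted against its paralogue number, for ESC to E7.5 and for E7.5 to E8.5, with colours for the 4 clusters and filled points for called genes. The large differences in both steps belong to Hoxb1, Hoxd1 and, in the first step, Hoxb2, while group 13 genes lie near 0.

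In the E8.5 heart tube, compared with E7.5, the direction turned: 15 members fell and 1 rose. Of all genes, 48.6% were called, 20.4% higher and 28.1% lower, and the median difference was -0.25 over the members and -0.06 over all genes. This step also changes the tissue from whole embryo to heart tube, and the 4 pluripotency markers fell while all 6 heart muscle markers rose. Hoxd1 fell by 3.44 ± 0.21 (limma adjusted p = 1.52e-12) to 3.77, 4.36 and 3.73, close to its ESC level. Hoxb1 fell by 3.34 ± 0.25 (limma adjusted p = 1.17e-10) to 6.66 ± 0.56 (SD, n = 3), with arrays 1 and 3 at 6.31 and 6.36, so it stayed above every ESC array, as did Hoxd1 by a smaller margin. Hoxd9, a gene of the posterior trunk and limbs, fell by 1.85 ± 0.17 (limma adjusted p = 2.02e-09), from 6.86, 7.69 and 7.15 to 5.20, 5.41 and 5.56. Hoxb6 fell by 1.38 ± 0.18 (limma adjusted p = 9.47e-07), from 5.36, 6.20 and 5.51 to 3.98, 4.86 and 4.09.

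The other falls at this step were Hoxc8 (-1.37), Hoxd8 (-1.28), Hoxc4 (-0.85), Hoxb9 (-0.82), Hoxb2 (-0.81), Hoxb4 (-0.65), Hoxa2 (-0.55), Hoxa7 (-0.53), Hoxb5 (-0.49), Hoxa13 (-0.33) and Hoxb3 (-0.29). Single arrays of the 2 stages overlapped for Hoxb4, Hoxb5 and Hoxc8 and for no other called member. Hoxb2 kept a high signal in the heart tube, at 8.64, 9.09 and 8.70. The member that rose was Hoxa5, a regulator of axial skeleton and lung development, from 7.62, 7.25 and 7.54 to 7.64, 7.91 and 8.14 (0.43 ± 0.13, limma adjusted p = 0.008). The direction depends on the probe set, and its other probe set fell by 1.93. The Hoxa5 call was lost without E7.5 array 2 (limma adjusted p = 0.056) or E8.5 array 3 (0.069). Among the small falls, Hoxa2 was lost without E8.5 array 3 (0.052), and Hoxb5 without E7.5 array 2 (0.300) or E8.5 array 3 (0.135). Hoxa13 was lost without E7.5 array 1 or 3 or E8.5 array 1 or 2 (limma adjusted p = 0.052 to 0.110), and Hoxb3 without E7.5 array 1 or 2 or E8.5 array 1 or 2 (0.056 to 0.142). By cluster, 7 of 9 Hoxb genes fell, against 3 of 9 Hoxa, 2 of 7 Hoxc and 3 of 8 Hoxd genes. In the fit on 45 arrays 1 member rose and 13 fell, against 41.0% of all genes called, and Hoxa13 and Hoxb3 were lost.

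From E8.5 to the E9.5 ventricles 4 members fell and 1 rose, against 26.9% of all genes called, 12.8% higher and 14.1% lower. All 4 falls were in the Hoxb cluster. Hoxb1 fell by 3.39 ± 0.25 (limma adjusted p = 6.84e-10) to 2.83, 2.91 and 2.89 in the LV arrays and 5.45, 2.74 and 2.81 in the RV arrays. Apart from RV array 1, Hoxb1 was thus below its ESC level, and it stayed between 2.69 and 3.36 in all 30 later arrays. Hoxb2 fell by 1.44 ± 0.11 (limma adjusted p = 1.53e-09) to 7.25 ± 0.17 in LV (SD, n = 3) and 7.62, 7.42 and 7.42 in RV. The Hoxb2 values did not overlap with E8.5, and RV array 1 differed little from the rest.

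Hoxb4, a gene of the hindbrain and anterior trunk, fell by 1.07 ± 0.18 (limma adjusted p = 6.52e-05), and Hoxb5 fell by 0.71 ± 0.18 (limma adjusted p = 0.004). Hoxa5 rose by 0.41 ± 0.13 (limma adjusted p = 0.018). That call was lost without the number 1 arrays of E9.5 (0.34, limma adjusted p = 0.101) and without E8.5 array 1 (0.29, limma adjusted p = 0.129). Leaving out only RV array 1, an alternative chosen after seeing the data, gave 9 falls and 1 rise against 27.4% of all genes. The added falls were Hoxa10 (-1.25, limma adjusted p = 0.023), Hoxd1 (-0.85, limma adjusted p = 1.11e-05), Hoxa2 (-0.59, limma adjusted p = 0.002), Hoxb6 (-0.49, limma adjusted p = 0.047) and Hoxb3 (-0.34, limma adjusted p = 0.026). Hoxb1 then fell by 3.82. On LV arrays alone 8 members fell, against 19.2% of all genes called. In the fit on 45 arrays Hoxa5 was again called higher and Hoxb1, Hoxb2, Hoxb4 and Hoxb5 lower, against 25.3% of all genes.

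**Figure D3:**
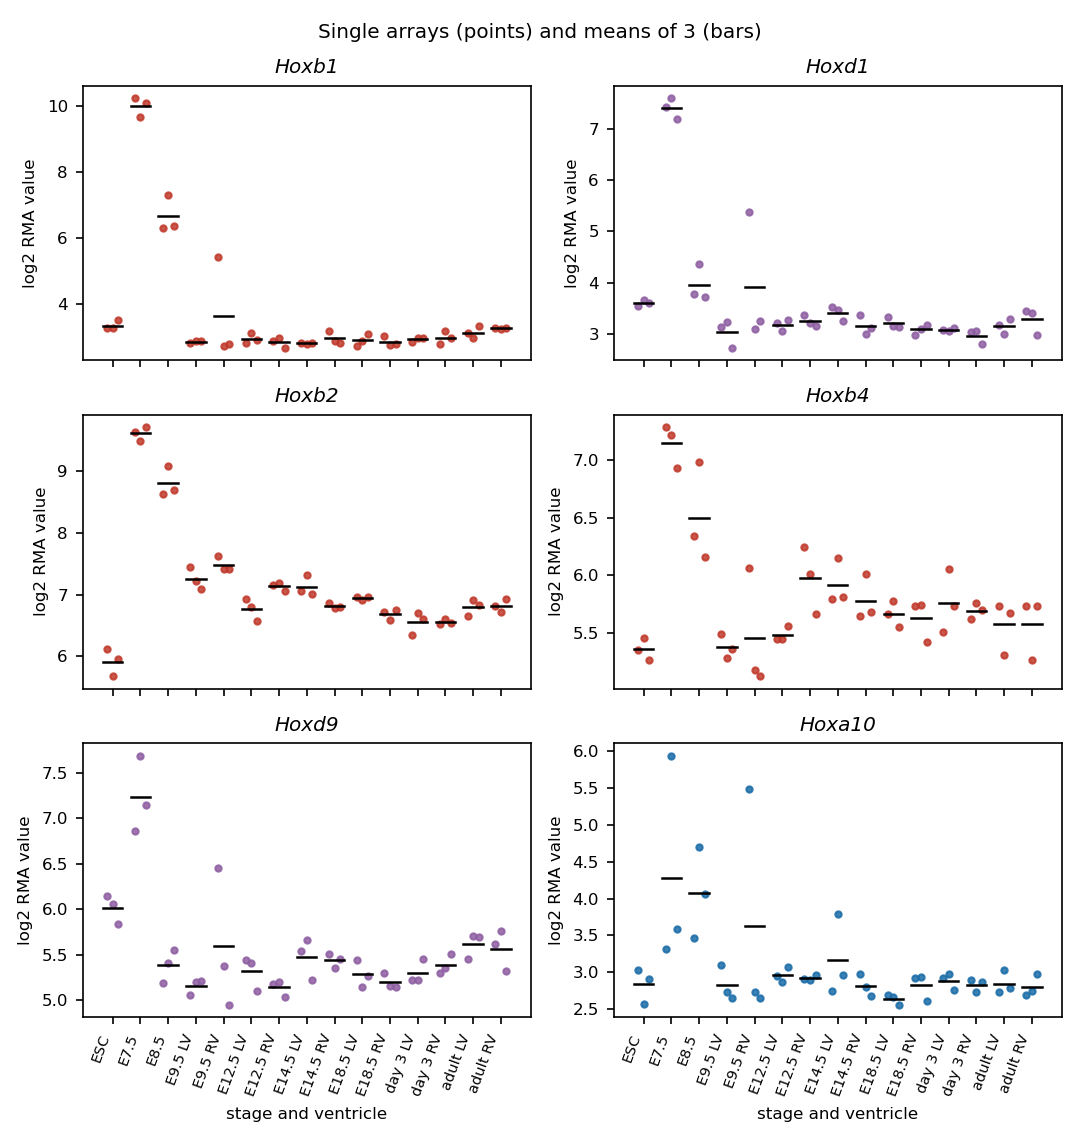
Log2 RMA signal of Hoxb1, Hoxd1, Hoxb2, Hoxb4, Hoxd9 and Hoxa10 in each of 45 arrays by stage, with points for single arrays and short horizontal lines at the group means. The E7.5 peak is shared by Hoxb1, Hoxd1, Hoxb2, Hoxb4 and Hoxd9. For each gene drawn, RV array 1 lies above the other 5 E9.5 arrays, by 0.18 for Hoxb2 and 0.58 for Hoxb4 up to 2.54 for Hoxb1.

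E9.5 RV array 1 differed from the other 5 arrays of that stage across all 4 clusters. It was the highest of the 6 arrays for 25 of 33 members (75.8%), against 19.8% of all genes. It lay more than 1 log2 unit above the mean of the other 5 for 10 members (30.3%), against 0.572% of all genes. Hoxc10, a gene of the lumbar and hindlimb region, read 6.80 there, and the other 5 arrays averaged 2.96 with a range of 0.27. Hoxd10, a posterior gene of the same paralogue group, read 6.01 against a mean of 2.92 and a range of 0.36. Hoxa10, the third gene of that group, read 5.49 against a mean of 2.77 and a range of 0.46. In all 3 genes the other 5 arrays, of both ventricles, were nearly alike.

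Hoxc8 read 5.68 in E9.5 RV array 1 against a mean of 2.77 (range 0.12), and Hoxb1 read 5.45 against a mean of 2.83 (range 0.17). Hoxd1 stood 2.29 above the mean of the other 5 arrays, Hoxd8 1.49, Hoxc4 1.35, Hoxd9 1.29 and Hoxa2 1.21. With the probe sets used, the excess thus ran from paralogue group 1 to group 10. An excess over 1 log2 unit was found for 4 of 10 genes of groups 1 to 4. It was found for 2 of 9 genes of groups 5 to 8 and 4 of 14 of groups 9 to 13. These counts depend on the probe set. The second Hoxd13 probe set (1440626_at) read 5.08 against 3.34 to 3.58 in the other 5 arrays. That of Hoxa9 (1455626_at) read 8.16 against 4.14 to 4.68, but that of Hoxa10 (1446408_at) read 2.94 against 2.82 to 3.145. In the noncoding RNAs of the clusters, Hoxb5os read 10.26 against 5.36 to 5.85 in the other 5 arrays, and Hoxa11os read 4.49 against 3.09 to 3.29.

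**Figure D4:**
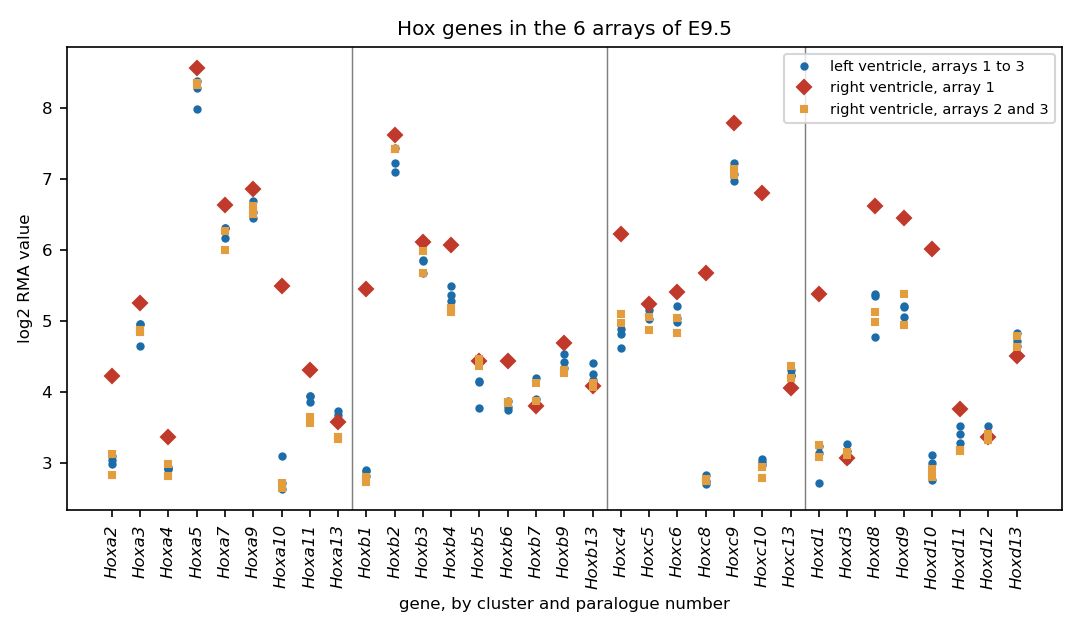
Log2 RMA signal of the 33 Hox genes in the 6 E9.5 arrays, with LV and RV in different colours and RV array 1 as a separate symbol. RV array 1 lies apart from the other 5 arrays for Hoxc10, Hoxd10, Hoxc8, Hoxa10, Hoxb1 and Hoxd1. It lies close to them for Hoxb2 and for the Hoxa5 probe set drawn. The other Hoxa5 probe set (1448926_at), not drawn, read 5.995 in RV array 1 against 4.18 to 4.64 in the other 5 arrays.

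Markers of other embryonic tissue moved with the Hox genes in E9.5 RV array 1. The mean of 10 tailbud and presomitic mesoderm markers was 5.35 there and 4.50 to 4.69 in the other 5 arrays. Cdx4, a caudal gene of the posterior body axis, read 5.60 there against 2.56 to 2.76 in the other 2 RV arrays. Cdx2 read 6.33 against 5.19 to 5.45, and the posterior markers Evx1 and Fgf17 were also more than 1 log2 unit higher. The mean of 6 foregut markers was 5.39 against 4.34 to 4.56, with Shh, a signal made by gut endoderm and floor plate, at 5.11 against 3.52 to 3.73. Sox2, a marker of neural tube and foregut, read 5.47 against 2.79 to 3.20. It is a single gene of the neural tube list, and the other genes of that list and the somite markers are not given here. Markers of decidua and trophoblast were high in both number 1 arrays of E9.5, with a mean over 4 of 8 listed genes of 6.30 in RV and 6.17 in LV, against 4.63 to 4.94 in the other 4. The Hox genes above were not high in LV array 1. Heart muscle markers averaged 13.29 in RV array 1 against 13.41 to 13.60 in the other 5. The part of these tissues in the Hox signal was not tested.

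Hox genes also stood apart in other single arrays. In E7.5 array 2, 4 members (12.1%) exceeded the mean of the other 2 arrays by more than 1 log2 unit, against 1.77% of all genes. In the same array, 4 measured markers of decidua and trophoblast had a mean 2.40 above the other 2 arrays, and endothelial markers were 1.08 higher. In E8.5 array 2, Hoxc8 read 4.22 against 2.93 and 2.78, where 0.533% of all genes exceeded 1 log2 unit, and foregut markers were 0.79 higher. In E14.5 LV array 2, Hoxc8 read 5.41 against 3.59 and 3.31, and Hoxc4 read 6.54 against 4.89 and 5.10. There 1.80% of all genes exceeded 1 log2 unit, and means of skeletal muscle, neural crest, foregut and thymus markers were 1.12, 0.97, 0.94 and 0.77 higher.

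In adult RV array 2, Hoxd8 read 7.69 against 5.67 and 6.14, where 1.73% of all genes exceeded 1 log2 unit and 5 fibroblast markers averaged 1.58 higher. In E12.5 RV array 1, Hoxa2, which patterns hindbrain and cranial neural crest, read 4.67 against 3.63 and 3.66, against 0.0989% of all genes. Hoxc8 stood over 1 log2 unit above its group in 4 arrays of 4 different stages. The part of the other tissues in these arrays was not tested.

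After E9.5 few members were called. From E9.5 to E12.5, 3 members rose and 1 fell against 38.1% of all genes called, with 20.1% higher and the rest lower. Hoxa2 rose by 0.46 (limma adjusted p = 0.027), Hoxc6 by 0.40 (limma adjusted p = 0.022) and Hoxa4 by 0.36 (limma adjusted p = 0.024), and Hoxb2 fell by 0.42 (limma adjusted p = 0.004). Single arrays of the 2 stages overlapped for all 4 of these genes. For Hoxa2 the E12.5 LV values were 3.52, 3.53 and 3.06 and RV values 4.67, 3.63 and 3.66. With the mean of its probe sets Hoxc6 was lost (0.18, limma adjusted p = 0.164). Without only E9.5 RV array 1, 5 rose and 1 fell against 38.2% of all genes, with Hoxc4 and Hoxd11 added to the rises. Without the number 1 arrays of E12.5, 1 member was called, with Hoxa2 at an adjusted p of 0.250 (limma), Hoxa4 at 0.082 and Hoxc6 at 0.115. Hoxa2 and Hoxa4 were also lost without the number 2 arrays of E9.5 (limma adjusted p = 0.154 and 0.105), and all 3 without the number 3 arrays of E9.5 (0.108, 0.072 and 0.122). The balance of directions then turned: 1 member rose and 3 fell without number 2, against 35.6% of all genes called, and 0 rose and 3 fell without number 3, against 32.8%. The falls in both were Hoxb2, Hoxc10 and Hoxd10, the last 2 of which were high in E9.5 RV array 1.

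From E12.5 to E14.5, 0 of 33 members were called by limma, against 13.3% of all genes, 7.18% higher and 6.09% lower. An unadjusted p under 0.05 was found for 1 member, Hoxd8, with a difference of 0.67 (limma adjusted p = 0.166), and the fit on 45 arrays also called 0. From E14.5 to E18.5 the posterior gene Hoxb13 fell by 0.28 (limma adjusted p = 0.014), against 30.6% of all genes called, 11.8% higher and 18.7% lower. Its arrays read 4.32 to 4.47 at E14.5 and 3.86 to 4.29 at E18.5, both low on the array's scale, and the call was lost without the number 1 arrays of E18.5 (limma adjusted p = 0.078). With arrays scaled on 7 housekeeping genes it was lost too (-0.16, limma adjusted p = 0.195), and the only member called was then Hoxa5, which was higher by 0.36 (limma adjusted p = 0.030), against 32.9% of all genes.

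From E18.5 to day 3, 4 members rose and 0 fell, against 20.2% of all genes called, 9.94% higher and 10.3% lower. The lack of falls depends on the fit. In the fit on 45 arrays Hoxb2 was called lower (-0.27, limma adjusted p = 0.014), against 28.6% of all genes called. On LV arrays alone it was called lower too (-0.40, limma adjusted p = 0.046), against 16.5%. Hoxa3, a gene of the pharyngeal arches, thymus and cardiac neural crest, read 4.97 to 5.17 in the 6 E18.5 arrays and 5.44 to 5.61 in the 6 day 3 arrays. These ranges did not overlap, and the rise was 0.47 ± 0.14 (limma adjusted p = 0.014). The mean of the gene's 4 probe sets gave 0.09 (limma adjusted p = 0.520), and the other 3 probe sets were not called, with differences of -0.06 to 0.02. Hoxc6, a gene of the thoracic trunk, rose by 0.44 ± 0.14 (limma adjusted p = 0.024) from 5.17 to 5.50 at E18.5 up to 5.56 to 6.12 at day 3. Hoxb9 rose by 0.39 (limma adjusted p = 0.009) and Hoxb13 by 0.26 (limma adjusted p = 0.035). Hoxb13 rose by 0.42 on LV arrays alone (limma adjusted p = 0.016) and by 0.10 on RV arrays alone (limma adjusted p = 0.621). All 4 rises were under 1 log2 unit, and 1 to 3 members were called when the arrays of 1 number were left out at either stage. The count was 1 without number 1 of E18.5, and it was 2 without number 3 of E18.5 or without number 1 or 3 of day 3. Hoxa3 was lost without number 1 of E18.5 (limma adjusted p = 0.052) or number 2 of day 3 (0.051). Hoxc6 was lost without any one number of E18.5 and without number 1 or 3 of day 3 (limma adjusted p = 0.051 to 0.126), and Hoxb13 without number 1 or 3 of either stage (0.072 to 0.204).

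From day 3 to the adult, Hoxd3 rose by 0.38 ± 0.11 (limma adjusted p = 0.006) and Hoxc13 by 0.29 ± 0.10 (limma adjusted p = 0.022), against 48.8% of all genes called, 22.3% higher and 26.4% lower. Hoxd3 read 3.23 to 3.84 in day 3 arrays and 3.51 to 4.28 in adult arrays, which overlap. Hoxc13 rose by 0.53 on LV arrays alone (limma adjusted p = 3.6e-04) and by 0.05 on RV arrays alone (limma adjusted p = 0.748). Without number 3 of the adult Hoxd3 was lost (limma adjusted p = 0.064), and Hoxc13 was lost without number 1 or 3 of the adult or number 2 or 3 of day 3 (0.053 to 0.114). The count was 1 without number 1 or 3 of the adult and 4 without number 2. This step depends on scaling: with arrays scaled on 7 housekeeping genes, the median over all genes went from 0.03 to 0.34 and the share of calls that were higher went from 45.8% to 80.0%, and 24 members were higher against 74.6% of all genes called. In each earlier stage step the same scaling raised the median difference of all genes by 0.08 (E12.5 to E14.5) to 0.19 (ESC to E7.5).

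With the probe sets used, the members with the highest adult signal were Hoxa5, Hoxc9, Hoxa9, Hoxb2 and Hoxa7, each compared here only with itself. The other Hoxa5 probe set (1448926_at) averaged 5.49 in adult LV and 5.60 in adult RV. The other Hoxa9 probe set (1455626_at) averaged 4.34 and 4.39, so the places of both genes depend on the probe set. The values that follow are from the probe sets used. Hoxa5 averaged 8.51 ± 0.12 in adult LV and 8.41 ± 0.26 in adult RV (SD, n = 3), against 7.05 ± 0.27 in ESC. Its group means stayed within 8.16 and 8.57 from E9.5 LV onward. Hoxc9 averaged 7.61 ± 0.10 and 7.71 ± 0.13 in adult LV and RV and 7.43 ± 0.08 in ESC. Hoxa9 averaged 6.82 and 6.93 against 6.73 in ESC, and Hoxa7 6.75 and 6.97 against 6.78. Hoxb2 averaged 6.80 and 6.82 in the adult, between its ESC level of 5.92 and its E7.5 level of 9.62. For group 1, Hoxd1 ended at 3.16 and 3.28 in adult LV and RV, and Hoxb1 at 3.15 and 3.28.

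Left and right ventricle were compared at each of 6 stages, and 0 of 33 members were called by limma at any stage. The shares of all genes called from E9.5 to the adult were 3.50%, 1.26%, 8.51%, 4.95%, 0.00550% and 0.0165%. Over the mean of the 6 stages 0 members were called, against 2.97% of all genes. An unadjusted p under 0.05, a looser threshold, was found for 8 members at E9.5, 4 at E12.5, 4 at E14.5, 2 at E18.5, 2 at day 3 and 1 in the adult. Over the mean of the 6 stages it was found for 1. The share of all genes at this looser threshold is not given here, so these counts have no background. At E9.5 all 8 members were higher in the right ventricle: Hoxb1, Hoxb5, Hoxc4, Hoxc8, Hoxc10, Hoxd1, Hoxd9 and Hoxd10. Hoxd1 had the smallest adjusted p, with LV minus RV at -0.87 ± 0.29 (limma adjusted p = 0.094). Of these 8 members, Hoxb5 read 4.44, 4.47 and 4.37 in RV and 3.78, 4.15 and 4.15 in LV, so array 1 was not its highest. The values of the others carry RV array 1. Without that array 0 members were called by limma, against 1.96% of all genes. Leaving out another RV array instead gave it more weight: 4 were called without RV array 2 (Hoxb1, Hoxc10, Hoxd1 and Hoxd10), against 4.09% of all genes. Without RV array 3 the 4 called were Hoxc10, Hoxd1, Hoxd9 and Hoxd10, against 2.46% of all genes.

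At E12.5 the 4 members with an unadjusted p under 0.05, Hoxa2, Hoxa3, Hoxb2 and Hoxb4, were anterior genes with higher values in the right ventricle. Hoxb4 read 5.45, 5.45 and 5.56 in LV and 6.25, 6.01 and 5.67 in RV, without overlap (LV minus RV -0.49, limma adjusted p = 0.401). Hoxb2 was the member whose left minus right difference varied with stage (limma F test, adjusted p = 0.027), a test that called 5.85% of all genes. It read 6.92, 6.80 and 6.58 in LV and 7.15, 7.19 and 7.07 in RV at E12.5, and 7.06, 7.31 and 7.02 in LV and 6.87, 6.78 and 6.80 in RV at E14.5. The ventricles did not overlap at either stage, with RV higher at E12.5 and LV higher at E14.5. LV minus RV was -0.37 ± 0.12 (limma adjusted p = 0.155) at E12.5 and 0.31 ± 0.12 (limma adjusted p = 0.088) at E14.5, so the difference at either stage alone was not called. At E14.5 without LV array 1, Hoxd13 was called at -0.45 (limma adjusted p = 0.027), higher in the right ventricle, against 11.8% of all genes.

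Of the 33 members 11 have more than 1 probe set, and in a fit over all probe sets those of 8 genes differed in call from ESC to E7.5 or from E7.5 to E8.5: Hoxa3, Hoxa4, Hoxa5, Hoxa9, Hoxa10, Hoxb3, Hoxc6 and Hoxd13. For Hoxa3, probe set 1427433_s_at rose by 1.57 from ESC to E7.5 (limma adjusted p = 8.91e-08) and fell by 0.91 to E8.5 (limma adjusted p = 1.84e-04), while the other 3 were not called in either step. For Hoxd13, the second probe set (1440626_at) fell by 0.64 from E7.5 to E8.5 (limma adjusted p = 0.002), and the first was not called. For Hoxa5, the probe set used above rose slowly from 7.05 in ESC to 8.57 at day 3 LV. The other Hoxa5 probe set (1448926_at) rose by 2.01 from ESC to E7.5 (limma adjusted p = 1.46e-06), fell by 1.93 to E8.5 (limma adjusted p = 3.01e-06) and rose by 1.15 from E9.5 to E12.5 (limma adjusted p = 0.002). It thus peaked at E7.5 like the anterior genes, and its second high values were 6.41 at E12.5 RV and 6.37 at E14.5 LV. The E14.5 LV mean rests on array 2, since its arrays read 5.78, 7.33 and 5.99. The x in the name of the probe set used above (1443803_x_at) marks probes that may detect other transcripts.

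For Hoxb3, a hindbrain and pharyngeal gene, the second probe set (1456229_at) rose by 3.15 from 3.59 to 6.74 at E7.5 (limma adjusted p = 1.40e-13). It fell by 0.90 to E8.5 (limma adjusted p = 1.16e-04) and by 1.26 to E9.5 (limma adjusted p = 6.00e-06). The probe set with the higher mean spanned 0.64 between its group means. The second Hoxb3 probe set was also the call between ventricles at E14.5, with 5.22 in LV and 4.27 in RV (0.95 ± 0.25, limma adjusted p = 0.019). For Hoxa9, the second probe set (1455626_at) rose by 1.81 from ESC to E7.5 (limma adjusted p = 0.003), and its highest array was E9.5 RV array 1 at 8.16. The first Hoxa9 probe set stayed between 6.29 and 7.12 in all arrays. Counting a gene as called when any of its probe sets was called, an alternative chosen after seeing the data, gave 17 members from ESC to E7.5 and 20 from E7.5 to E8.5, against 56.6% and 53.8% of all genes counted the same way.

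**Figure D5:**
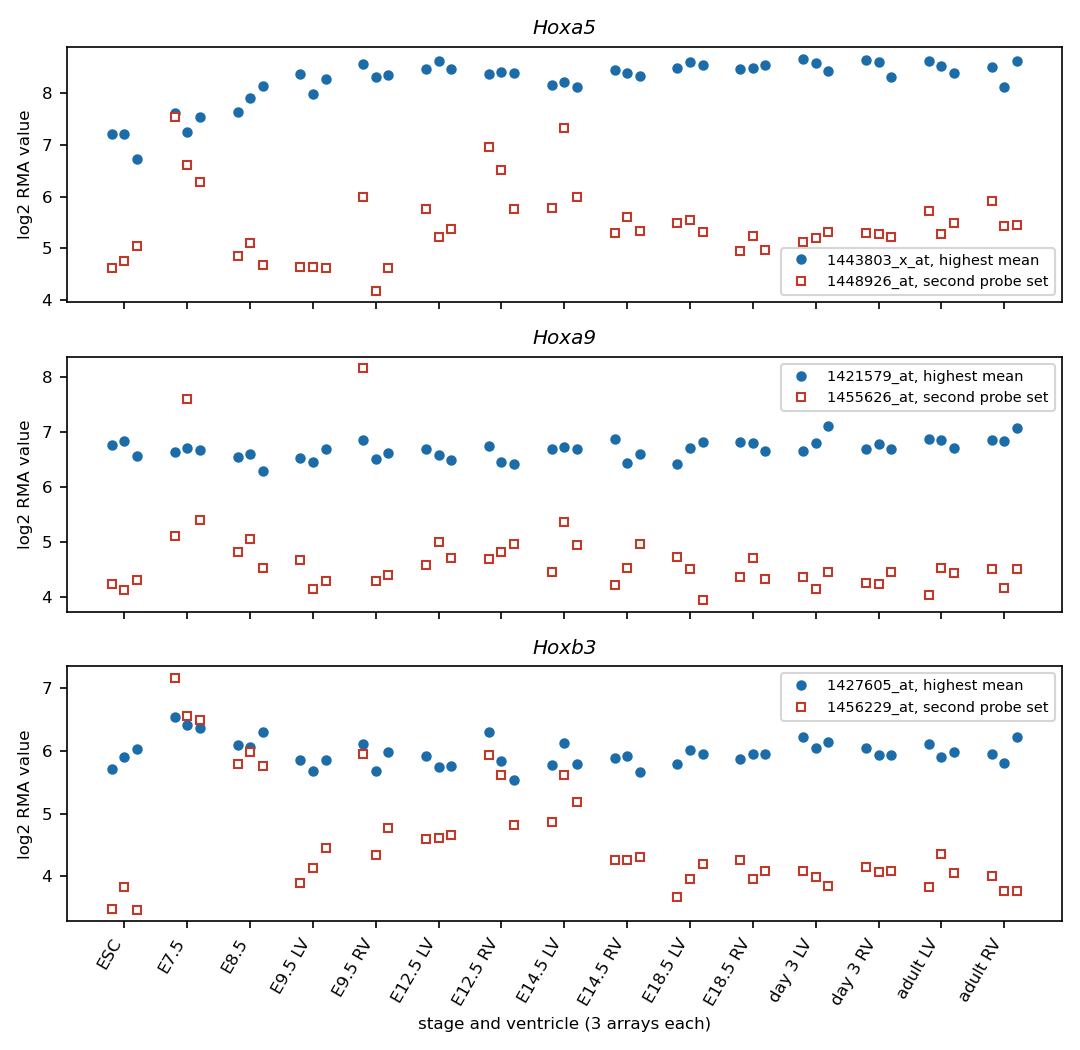
Log2 RMA signal by group of both probe sets of Hoxa5, Hoxa9 and Hoxb3, with points for single arrays, filled circles for the probe set with the higher mean and open squares for the other. In each gene the probe set with the lower mean is high at E7.5, while the group means of the other span at most 1.52 log2 units.

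Probe sets shared by neighbouring genes followed the E7.5 peak. The probe set annotated to Hoxb8 and Hoxb7 rose by 1.26 from 3.07 to 4.33 (limma adjusted p = 4.94e-06) and fell by 1.26 (limma adjusted p = 6.15e-06). The 2 probe sets annotated to Hoxd4 and Hoxd3 rose by 0.62 and 0.92 and fell by 0.75 and 0.94. The probe set of Hoxd3 alone was not called in either step, and a shared probe set cannot be assigned to either gene.

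Genes that act with or on the Hox clusters were read from lists of their own. For these lists, the shares of all genes called higher and lower were 24.3% and 25.2% from ESC to E7.5, 20.4% and 28.1% from E7.5 to E8.5, 12.8% and 14.1% from E8.5 to E9.5, and 22.3% and 26.4% from day 3 to the adult. Whether a list differs from these shares was not tested. TALE homeodomain proteins (Pbx, Meis and Pknox) bind DNA with Hox proteins, and 5 of 8 measured genes rose from ESC to E7.5 and 0 fell (median 0.97). Meis2 rose by 4.80, Meis1 by 3.23 and Pknox2 by 3.11. From this list 3 of the 8 rose again from E7.5 to E8.5 and 1 fell, with Meis1 up by 1.46 (limma adjusted p = 2.73e-08). From day 3 to the adult 1 TALE gene rose, Pknox2 by 1.52, and 4 fell, among them Pbx3 (-1.28) and Pbx2 (-0.89). Of 9 caudal, even-skipped and ParaHox genes, which include the Cdx activators of trunk Hox genes, 4 rose from ESC to E7.5 and 0 fell. From E7.5 to E8.5, 0 rose and 7 fell. Cdx1 rose by 4.31 and fell by 5.19, Cdx2 rose by 2.36 and fell by 5.42, and Cdx4 rose by 2.74 and fell by 3.80, so in all 3 the E8.5 level was below that of ESC.

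Of 14 measured genes of the retinoic acid pathway, 7 rose and 1 fell from ESC to E7.5 (median 0.65). Aldh1a2, which makes retinoic acid, rose by 5.04, the receptor gene Rarb by 3.69 and the binding protein gene Crabp2 by 3.00. From E7.5 to E8.5, 3 rose and 5 fell, with Aldh1a2 at -3.62 and the degrading enzyme gene Cyp26a1 at -1.79. From E8.5 to E9.5, 1 rose and 8 fell, with Aldh1a1 up by 4.08 and Cyp26a1 down, at -3.50. In E9.5 RV array 1, where Hox genes were high, Cyp26a1 read 6.99 against at most 4.70 in the other 5 arrays.

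Of 15 measured Polycomb genes, whose products keep Hox genes repressed, 5 rose and 7 fell from ESC to E7.5 (median -0.11). Bmi1 rose by 3.26, Cbx2 rose by 1.52 and Cbx7 fell by 1.68. From E7.5 to E8.5, 1 rose and 8 fell, and from day 3 to the adult 2 rose and 9 fell, with the methyltransferase gene Ezh2 at -3.09, Mtf2 at -1.01 and Cbx7 at 1.19. Of 9 trithorax and H3K27 demethylase genes, which keep Hox genes active, 3 rose and 1 fell from ESC to E7.5 (median -0.06), with differences under 1 log2 unit. From E7.5 to E8.5, 4 of the 9 fell (28.1% of all genes did) and 0 rose, and from E8.5 to E9.5, 5 fell (14.1% of all genes) and 0 rose. Of 3 measured other regulators, Zbtb16 rose by 1.59 and Egr2 fell by 0.66 from ESC to E7.5. Of 3 measured noncoding RNAs of the clusters, Hoxb5os rose by 1.41 from ESC to E7.5 (limma adjusted p = 0.005), and none was called by limma in a later stage step.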

How the data were processed

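RNA from 45 samples was extracted with RNeasy and labelled as biotin cRNA for Affymetrix arrays, per the labels' protocols. The authors deposited log2 values after RMA (background correction, quantile normalization and probe set summary), per the submitters' processing notes; no version was given there. Array medians lay between 5.35 and 5.47, and no depth applies to arrays; 3 arrays a group limit the precision. Of 45101 probe sets, 64 controls were left out and 34945 carried 1 gene symbol. Each of 18193 genes was read from the probe set whose mean over 45 arrays was highest.

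Stage steps were fitted with limma 3.58.1 in R 4.3.3 on 27 values, averaging the LV and RV arrays of the same stage and number (18 residual degrees of freedom). Single arrays of ESC, E7.5 and E8.5 there share a spread with averaged values, so counts from 45 arrays as 15 groups are given for those steps. Left against right was fitted on the 45 arrays (30 residual degrees of freedom). P-values were adjusted by Benjamini-Hochberg over all genes and called at 0.05. The procedure was tested on simulated data. Correlations of LV and RV arrays of the same number were 0.271, 0.321 and 0.369 at E12.5. At every other stage at least 1 was under 0.1, though at E9.5 the others were 0.257 and 0.317. From these values it cannot be told at which stages the replicate numbers pair LV and RV.

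The members and lists were chosen with earlier results of these data known. Every member is accounted for. Single values are given for up to 4 largest rises and falls of a step, the 5 largest ranges at E9.5, the 5 highest adult means, members called between ventricles, and the first and last paralogues. Of other lists, counts and up to 3 largest changes are given. Other genes and the single array values of Hoxc4, Hoxb4, Hoxd8 and Hoxa2 at later stages were chosen after their values were seen. Alternatives were other probe set choices, filters, thresholds, scaling, sample subsets and the replicate block. Figures and tables used Python 3.11.15, pandas 2.3.3, NumPy 2.4.6 and Matplotlib 3.10.9.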

Additional observations from a re-analysis of the deposited data

Results flagged for a closer look

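Hoxb2 was singled out because its difference between left and right ventricle changed with stage in a test of that difference (limma F test over 6 stages, F = 5.22, adjusted p = 0.027). LV minus RV was -0.23 at E9.5, -0.37 at E12.5, 0.31 at E14.5, 0.26 at E18.5, -0.01 at day 3 and -0.03 in the adult. The test called 1065 of 18193 genes.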

How the results depend on the processing

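Of 48 calls of members in the stage steps, 17 kept their direction and call under every alternative run, 29 were lost under at least 1 and 2 changed sign. The alternatives include stricter thresholds, and the 2-fold rule by itself removed 30 of the 48 calls. The 2 changes of sign were both in Hoxa5. From E7.5 to E8.5 it was at -0.75 with the mean of its probe sets and -1.93 with probe sets free of a cross-hybridisation suffix. From E8.5 to E9.5 it was at -0.10 with the latter, which was not called (limma adjusted p = 0.853). Among differences that the main setting did not call, signs turned for Hoxa9 from ESC to E7.5 (0.88), Hoxd13 from E7.5 to E8.5 (-0.30) and Hoxb3 from E14.5 to E18.5 (-0.33) with the mean of probe sets, and for Hoxb3 (0.26) and Hoxd11 (0.26) from day 3 to the adult under housekeeping scaling. The cause was not tested. Counts that moved by over 1.5 times follow. They show how far a setting moved a count. Where no share of all genes stands beside a count in this section, the count is not set against a background. With only the groups compared, 1 member was called from E12.5 to E14.5, 4 from E14.5 to E18.5, 8 from E18.5 to day 3 and 5 from day 3 to the adult. With genes above the array median in at least 3 arrays (15 members tested), the counts were 8 from ESC to E7.5, 10 from E7.5 to E8.5, 2 from E9.5 to E12.5, 0 from E14.5 to E18.5, 2 from E18.5 to day 3 and 1 from day 3 to the adult. The mean of probe sets gave 2 from E14.5 to E18.5. Housekeeping scaling gave 8 from E9.5 to E12.5, 7 from E18.5 to day 3 and 24 from day 3 to the adult. The shares of all genes called there were 43.8%, 28.1% and 74.6%. The same scaling raised the share of calls that were higher from 49.1% to 72.6% from ESC to E7.5, 42.1% to 58.8% to E8.5, 47.7% to 68.5% to E9.5, 52.7% to 70.5% to E12.5, 54.1% to 77.2% to E14.5, 38.7% to 64.5% to E18.5 and 49.1% to 81.1% to day 3. Requiring a 2-fold change left 9, 6 and 3 in the first 3 steps and 0 in the 4 other steps with calls. An adjusted p under 0.01 left 1 from E9.5 to E12.5, 0 from E14.5 to E18.5, 1 from E18.5 to day 3 and 1 from day 3 to the adult. LV arrays alone gave 8 from E8.5 to E9.5, 1 from E9.5 to E12.5, 1 from E12.5 to E14.5, 2 from E14.5 to E18.5 and 1 from day 3 to the adult. In that order, 19.2%, 31.0%, 6.46%, 32.6% and 41.4% of all genes were called. RV arrays alone gave 2, 1, 0 and 1 for the steps from E9.5 to day 3, against 33.4%, 17.2%, 22.9% and 15.5% of all genes. Any probe set gave 7 from E9.5 to E12.5, 1 from E12.5 to E14.5, 2 from E14.5 to E18.5 and 1 between ventricles at E14.5. Counted the same way, 44.8%, 16.4%, 34.5% and 11.1% of all genes were called. Leaving out only E9.5 RV array 1 gave 10 from E8.5 to E9.5, against 27.4% of all genes. Both alternatives were chosen after seeing the data.

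Leaving out the arrays of 1 replicate number gave 1 to 5 from E9.5 to E12.5, 0 to 1 from E14.5 to E18.5, 1 to 3 from E18.5 to day 3, 1 to 4 from day 3 to the adult, and, between ventricles, 0 to 4 at E9.5 and 0 to 1 at E14.5. The replicate number as a block changed no count between ventricles (0 at each stage). With 45 arrays as 15 groups, and equally with the replicate block as a random term (consensus correlation 0.015), 2 members were called from E14.5 to E18.5 and 6 from day 3 to the adult. With 45 arrays as 15 groups, 37.5% and 55.4% of all genes were called in these steps. Signals near the low end of the scale, as for Hoxb13 and Hoxd3, limit what small differences show.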
